A study of Mus musculus with 2 samples.

Results

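The cells described here were callus chondrocytes with a high level of Col10a1, the gene of the type X collagen that marks hypertrophic cartilage. They were chosen in each of the 2 deposited libraries, MGJ and MGJ2, by thresholds on UMIs (unique molecular identifiers, 1 count per captured RNA molecule). A barcode entered if it had at least 200 genes, at most 20% mitochondrial UMIs and at least 5000 UMIs in all. Per 10000 UMIs it had to hold at least 100 of Col2a1, the main fibrillar collagen of cartilage, at least 10 of Acan, the core protein of aggrecan, and at least 100 of Col10a1. The sum of S100a8, S100a9, C1qa, C1qb and C1qc had to be under 50 per 10000, and the 6 cycling genes Mki67, Top2a, Birc5, Ube2c, Cdk1 and Cenpf had to hold fewer than 10 UMIs together. The rule found 476 barcodes of the 21266 that passed the first filters on genes and mitochondrial UMIs. Library MGJ held 438 of them among 13460 (3.25%, exact binomial interval 2.96 to 3.57%), and library MGJ2 held 38 among 7806 (0.487%, 0.345 to 0.668%).

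Both libraries came from the repair callus of wild-type mice (C57BL/6J) with a femoral fracture, captured with the 10x Genomics 3′ kit (version 3). Callus was taken from 5 mice at 10 days and 5 mice at 20 days after the break, but neither library carries its day, and the mice pooled in a library cannot be separated. Each library was therefore 1 sample with no group, values of the libraries are set side by side, and no test between groups or days was possible. No allele or agent beyond the fracture was named for either library. Intervals on levels and ratios below cover counting error only, not the spread between mice.

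In endochondral repair, chondrocytes lay down a cartilage template, stop dividing, enlarge and switch from type II to type X collagen before the matrix mineralizes and is replaced by bone. Hypertrophic and prehypertrophic chondrocytes are the source of Indian hedgehog, which sets the pace of chondrocyte maturation together with parathyroid hormone-related protein. Late hypertrophic cells are known for the collagenase Mmp13, for the mineral-binding phosphoproteins Spp1 and Ibsp and for vessel-attracting signals.

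The libraries held 135304426 UMIs in MGJ and 61130834 in MGJ2. The high-Col10a1 chondrocytes had a median of 22855 UMIs a barcode in MGJ (range 5004 to 68935) and 33062 in MGJ2 (8286 to 73608). The main comparison set was the chondrocytes that met every part of the rule except that Col10a1 was under 100 per 10000, called lower-Col10a1 chondrocytes below, 1929 barcodes in MGJ and 65 in MGJ2. Their depth was close to that of the members (median 21614 and 31284 UMIs), while their mitochondrial share was higher, with medians of 3.70% against 2.97% in MGJ and 3.35% against 2.60% in MGJ2. The cut fell within a continuous range in MGJ, where 36 members lay between 100 and 125 per 10000, the lowest at 100.1, and 37 chondrocytes just outside lay between 80 and 100. In MGJ2 no member lay below 125 and 1 chondrocyte lay between 80 and 100. The libraries shared 19 barcode sequences, none of them a member in either library. Members held 73.98% of the Col10a1 UMIs of all deposited barcodes in MGJ and 68.7% in MGJ2, barcodes removed by the first filters included.

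Markers of blood and vessel cells were at low summed levels in the members. For neutrophil and macrophage genes this partly follows from the rule, whose limit on S100a8, S100a9, C1qa, C1qb and C1qc held for both chondrocyte sets. The 6 neutrophil genes (Retnlg, Csf3r, Ngp, Camp, Ltf, Il1b) summed to 82.6 CPM (counts per 1000000 UMIs) in the members of MGJ and 179 CPM in MGJ2, against 109 and 95.6 CPM in lower-Col10a1 chondrocytes. The 7 macrophage genes, none of them at 0 in the members, summed to 289 and 437 CPM, with a median over cells of 60.4 and 55.6 CPM. Endothelial genes summed to 5.98 and 7.54 CPM, and all 6 erythroid genes were at 0 in the members of MGJ2. In MGJ the erythroid genes summed to 25.4 CPM in the members against 174 CPM. The 5 T and NK cell genes were at higher sums in the members, 24.6 against 9.41 CPM in MGJ and 45.3 against 12.5 CPM in MGJ2, with a median of 0 over cells in each set. The lists for osteoclasts, mural cells and B cells summed to between 9.80 and 105 CPM in the members, and the 7 fibroblast and tendon genes to 3341 CPM in MGJ and 3935 CPM in MGJ2, against 5047 and 4092 CPM in lower-Col10a1 chondrocytes. The osteoblast list also moved with the comparison. Its 7 genes (Col1a1, Col1a2, Bglap, Bglap2, Ifitm5, Dmp1, Sost) summed to 7306 CPM in members against 13156 CPM in lower-Col10a1 chondrocytes of MGJ and to 7813 against 23090 CPM in MGJ2. The sum does not hold for each gene, since Bglap and Dmp1 were higher in the members of MGJ, with ratios given below. The part of other cell types or of barcodes with 2 cells in these values was not tested.

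Col10a1 chose the members, and its level is given as a description. It ranged over the members from 100.1 to 1409 per 10000 UMIs with a median of 271 in MGJ, and from 128 to 1322 with a median of 411 in MGJ2. Summed over members it was at 29949 CPM in MGJ and 46222 CPM in MGJ2. Neutrophil barcodes, which should not make it, held 390.1 and 231 CPM, and whether this was free RNA or came from barcodes with 2 cells was not tested. The gene lies at chr10:34389981-34397085, plus strand (GRCm38, GENCODE M21), inside Nt5dc1, which runs on the opposite strand. Nt5dc1, named after its values were seen, stood at 28.6 CPM in members against 5.32 CPM in lower-Col10a1 chondrocytes of MGJ and at 23.4 against 7.47 CPM in MGJ2. Whether strand was used in counting is not given in the sources used here, so reads of the pair cannot be told apart.

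The other 4 markers named for these cells were all higher in the members than in lower-Col10a1 chondrocytes of their own library. They were chosen with earlier results of these data known, so their direction is a description. Ihh, the gene of Indian hedgehog (chr1:74945315-74951672, minus strand), was at 228 CPM (95% Poisson interval 218 to 237) against 40.5 CPM in MGJ, a ratio of 5.62 (95% interval 5.28 to 5.98). In MGJ2 it was at 596 CPM (555 to 639) against 67.2 CPM, a ratio of 8.86 (95% interval 7.37 to 10.7). Aldh1a3, an enzyme that makes retinoic acid (chr7:66390890-66427517, minus strand), was at 455 against 36.5 CPM in MGJ, a ratio of 12.5 (95% interval 11.8 to 13.2), and at 315 against 41.8 CPM in MGJ2, a ratio of 7.53 (95% interval 5.95 to 9.64). The summed levels of both genes differed by several fold in each library, and their intervals cover counting error alone. Loxl4, a lysyl oxidase that crosslinks matrix (chr19:42593982-42612813, minus strand), was at 366 against 63.6 CPM in MGJ, a ratio of 5.76 (95% interval 5.48 to 6.05), and at 429.9 against 114 CPM in MGJ2, a ratio of 3.79 (95% interval 3.24 to 4.43). Ibsp, bone sialoprotein (chr5:104299171-104311469, plus strand), was at 11444 against 2224 CPM in MGJ, a ratio of 5.15 (95% interval 5.10 to 5.19), but only at 11267 against 6764 CPM in MGJ2, a ratio of 1.67 (95% interval 1.63 to 1.71). In MGJ2 the median member held 43.7 Ibsp UMIs per 10000 and the median lower-Col10a1 chondrocyte 1.92, so that the summed level of the second set lay far above its median barcode.

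**Figure D1:**
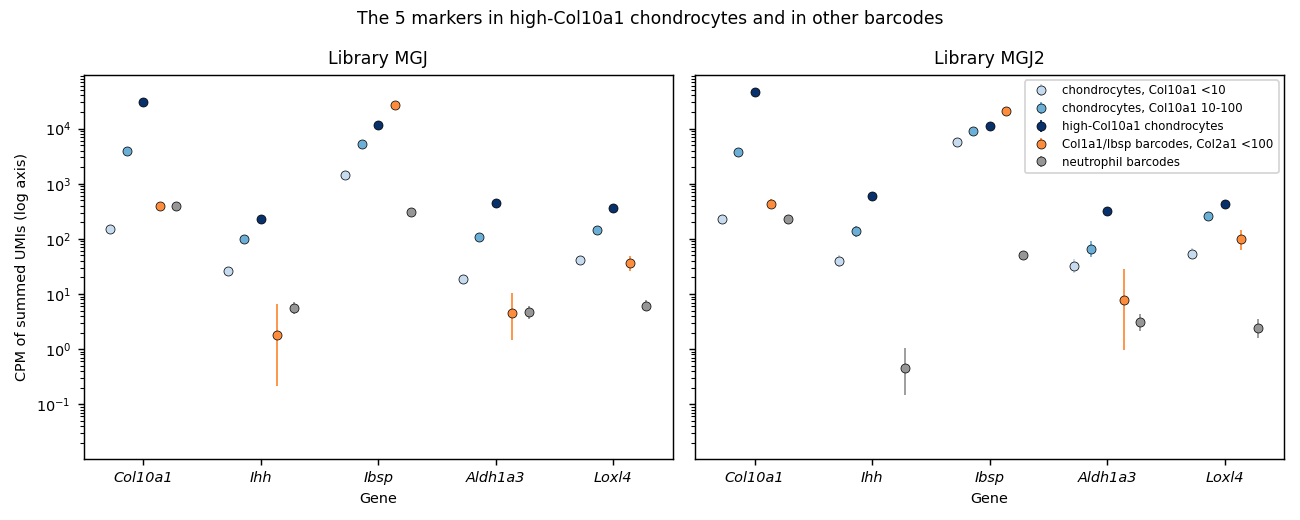
Summed level (CPM, log axis) of the 5 markers in 5 sets of barcodes of each library, with 95% Poisson intervals that are often smaller than the points; Ihh was at 0 UMIs in the Col1a1/Ibsp barcodes of MGJ2 and is not drawn there. Ihh, Aldh1a3 and Loxl4 were at their highest in the high-Col10a1 chondrocytes (Ihh 228 and 596 CPM). Col10a1 was also highest there, but it chose these cells. Ibsp was at its highest in the Col1a1/Ibsp barcodes (27404 and 21050 CPM). These barcodes were chosen by a minimum of Ibsp, so its high level there partly follows from that choice.

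Chondrocytes with Col10a1 between 10 and 100 per 10000, 346 barcodes in MGJ and only 17 in MGJ2, lay between these sets. In MGJ, Ihh was at 25.7 CPM below 10, at 98.2 CPM between 10 and 100, and at 228 CPM in the members, and in MGJ2 it was at 40.2, 136 and 596 CPM. Aldh1a3 followed the same order, at 18.6, 107 and 455 CPM in MGJ and 32.6, 65.4 and 315 CPM in MGJ2. The plot of markers by set shows this order for each marker in both libraries, which for Col10a1 follows from the grouping. Ibsp of MGJ2 did not keep it within the middle set. In the 10 barcodes with Col10a1 from 30 to 100 it was at 11528 CPM, no lower than in the members.

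The stretch just upstream of transcription is shown for 4 genes, Col10a1 and Ihh, which mark these cells, and Mmp13 and Spp1, whose spread among the members is described below. Each window is the 250 bases before the RefSeq start of transcription on GRCm38.p6, written 5′ to 3′ on the strand of the gene. Capitals mark the letters TGTGGT or ACCACA, the core that RUNX factors bind, and TGACTCA or TGAGTCA, the core of AP-1, found in a search of both strands for exactly these letters.
Col10a1, chr10:34389731-34389980, plus strand: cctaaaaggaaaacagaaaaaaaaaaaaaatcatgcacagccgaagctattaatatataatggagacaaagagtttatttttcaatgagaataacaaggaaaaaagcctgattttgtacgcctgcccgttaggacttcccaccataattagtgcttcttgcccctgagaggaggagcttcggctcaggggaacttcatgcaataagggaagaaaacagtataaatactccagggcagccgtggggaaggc
Ihh, chr1:74951673-74951922, minus strand: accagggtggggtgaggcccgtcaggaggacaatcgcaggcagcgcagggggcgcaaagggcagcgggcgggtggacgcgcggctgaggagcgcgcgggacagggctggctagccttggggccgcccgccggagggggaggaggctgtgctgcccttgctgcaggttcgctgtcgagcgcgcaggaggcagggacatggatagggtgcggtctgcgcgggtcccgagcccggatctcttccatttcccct
Mmp13, chr9:7272264-7272513, plus strand: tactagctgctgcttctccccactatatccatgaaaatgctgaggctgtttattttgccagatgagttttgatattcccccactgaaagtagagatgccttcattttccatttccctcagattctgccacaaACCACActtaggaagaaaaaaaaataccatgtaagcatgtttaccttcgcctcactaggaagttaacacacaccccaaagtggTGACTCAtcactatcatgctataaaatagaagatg
Spp1, chr5:104434861-104435110, plus strand: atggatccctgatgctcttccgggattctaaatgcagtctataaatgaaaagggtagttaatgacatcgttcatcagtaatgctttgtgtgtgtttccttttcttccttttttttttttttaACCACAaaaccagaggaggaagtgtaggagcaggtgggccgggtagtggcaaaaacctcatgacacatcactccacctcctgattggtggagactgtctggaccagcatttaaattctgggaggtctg
The Mmp13 window held ACCACA, starting 118 bases before the start of transcription, and TGACTCA, starting 35 bases before it. The Spp1 window held ACCACA 128 bases before the start, and a second Spp1 window in the table held no match. The windows of Col10a1, Ihh, Ibsp and Loxl4 held none of these letters, and Aldh1a3 was not matched. Of 32851 windows of the same length, 14.0% held a RUNX core and 4.46% an AP-1 core.

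Across all genes, 6.40% of the 6312 genes with a mean of at least 10 CPM over both sets in both libraries were at least 1.5-fold higher in members than in lower-Col10a1 chondrocytes of both libraries, and 8.48% were at least 1.5-fold lower. These were 404 and 535 genes, and 1.5-fold is a rule of size with no test. Counts in the gene lists below are to be read beside these shares. Within MGJ alone 11.7% of 6572 genes were higher and 13.5% lower, and within MGJ2, where 38 members were set against 65 barcodes and counting noise is larger, 14.0% of 7151 were higher and 19.7% lower. The median log2 ratio over the 6312 genes was -0.03 in MGJ and -0.07 in MGJ2. The 4 markers beside Col10a1, chosen with earlier results of these data known, were among the genes higher in both libraries. Set against only the chondrocytes with Col10a1 from 10 to 100, 203 of 6143 genes tested were higher and 235 lower in both libraries. In MGJ2 that set held only 17 barcodes.

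The 10 genes with the largest ratios, ranked by the library nearer to 1, were Krtap17-1, Gmpr, Jam2, Cds1, Ffar4, Aldh1a3, Pank1, Adm, Epas1 and Rhod. Krtap17-1, a keratin-associated protein gene, was at 68.04 CPM against 4.53 in MGJ, a ratio of 15.03 (95% interval 12.8 to 17.7), and at 192 against 9.46 in MGJ2, a ratio of 20.2 (95% interval 12.7 to 34.2). It was found in few members, 11.2% of MGJ and 15.8% of MGJ2 when each cell was thinned to 5000 UMIs. Pank1, which makes the first step of coenzyme A synthesis, had ratios of 19.1 and 7.36, and Jam2, a junctional adhesion molecule, 9.44 and 9.34. Epas1, the hypoxia-inducible factor HIF-2α, was at 35.8 against 5.16 CPM in MGJ and at 105 against 13.4 CPM in MGJ2, ratios of 6.94 and 7.79. Gmpr, a purine nucleotide reductase, Cds1, an enzyme of phospholipid synthesis, Ffar4, a fatty acid receptor, Adm, the vasodilator peptide adrenomedullin, and Rhod, a small GTPase, had ratios between 6.42 and 14.1.

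The 9 genes with the smallest ratios were Fam13c, Adam19, C1qtnf3, Itgbl1, Penk, Dclk1, Aspn, Ogn and Col15a1. C1qtnf3, a secreted protein of cartilage, was at 421 CPM in members against 2605 in MGJ and at 39.2 against 594 in MGJ2, ratios of 0.162 and 0.0660. Penk, the gene of proenkephalin, had a ratio of 0.167 in MGJ, and in MGJ2 the members held 1 UMI against 160 UMIs, a ratio of 0.00946 (95% interval 0.000238 to 0.0535). The small leucine-rich proteoglycans Aspn and Ogn had ratios of 0.206 and 0.0868 and of 0.207 and 0.173. Set against the chondrocytes with Col10a1 from 10 to 100 alone, Ogn in MGJ2 was on the other side, at 1.28, while the remaining 8 genes stayed below 1 in both libraries.

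**Figure D2:**
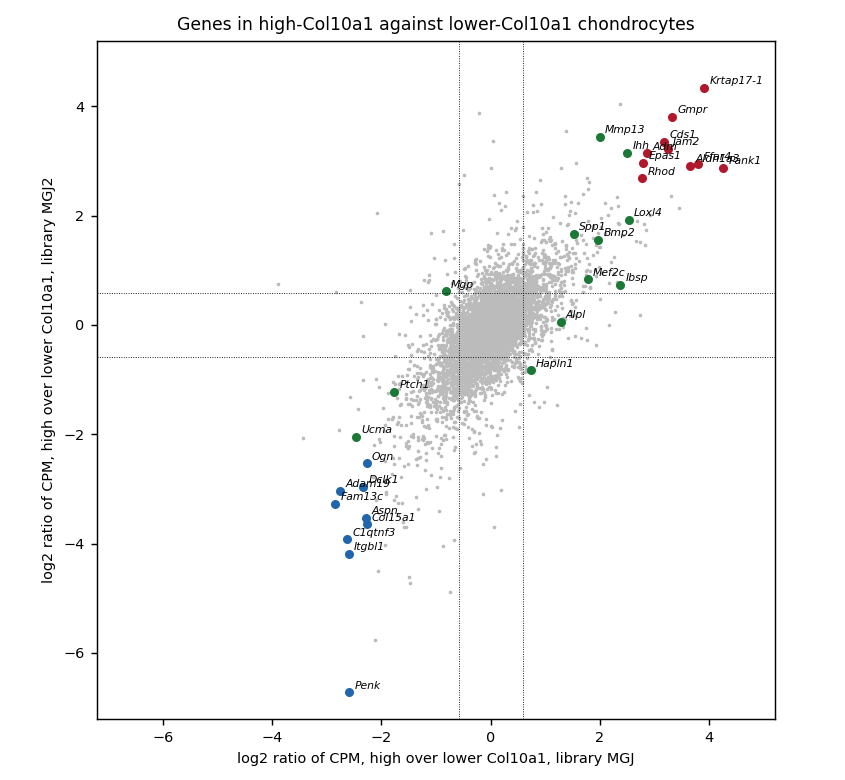
Log2 ratio of CPM, high-Col10a1 over lower-Col10a1 chondrocytes, in MGJ (x axis) and MGJ2 (y axis) for 6311 of the 6312 genes, 1 being outside the axes or at 0 in a set; dotted lines mark 1.5-fold, red points the 10 genes with the largest ratios, blue points the 9 with the smallest, green points other named genes. Markers, Mmp13, Spp1 and Bmp2 lay high in both libraries, while Mgp, Hapln1 and Alpl lay apart from the diagonal (Hapln1 1.66 and 0.563).

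Among signals, the hedgehog ligand and its target gene lay on opposite sides. The list had 7 genes of sufficient level, of which 2 were higher and 3 lower in both libraries. Ihh and Disp1, which releases the ligand, were higher (Disp1 1.52 and 1.68). Ptch1, the receptor that is itself a hedgehog target, was at 33.7 CPM in members against 115 CPM in MGJ, a ratio of 0.294 (95% interval 0.262 to 0.327), and at 71.7 against 167 CPM in MGJ2, a ratio of 0.429 (95% interval 0.338 to 0.541). In MGJ2, 67 of the 95 Ptch1 UMIs lay in the 5 members with Col10a1 from 100 to 200 per 10000, and with members of at least 200 alone the ratio was 0.143. Gli3 and the co-receptor Cdon were lower too, at ratios of 0.572 and 0.565 and of 0.433 and 0.397. Gli1 and Hhip, further hedgehog targets, held too few UMIs for the comparison, 5 and 1 Gli1 UMIs in the members of MGJ and MGJ2. Pth1r, the receptor of parathyroid hormone-related protein, was at 1379.9 against 712 CPM in MGJ (ratio 1.94) and at 1432 against 1383 CPM in MGJ2 (ratio 1.04). In MGJ it was as high between 10 and 100 Col10a1 per 10000 as in the members, at 1438 CPM.

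The BMP and TGF-β list had the most genes on the higher side. Of its 19 genes of sufficient level 8 were higher in both libraries and 1 was lower, with medians of 0.40 in MGJ and 0.05 in MGJ2 on the log2 scale. Bmp2, a ligand that drives chondrocyte and bone formation, was at 1005 against 258 CPM in MGJ, a ratio of 3.90 (95% interval 3.79 to 4.003), and at 634 against 216 CPM in MGJ2, a ratio of 2.94 (95% interval 2.62 to 3.31). The ligands Bmp6 (3.80 and 1.86), Bmp8a (7.001 and 3.60), Tgfb3 (3.06 and 2.26) and Gdf5 (1.68 and 1.63) were also higher. So were inhibitors of the same pathway, the secreted BMP antagonist Nog (4.61 and 2.22), the decoy receptor Bambi (2.79 and 1.95) and the inhibitory Smad7 (1.59 and 1.54). Gdf10 was lower (0.324 and 0.105). The receptors Bmpr1a and Bmpr2 and the direct targets Id1, Id2 and Id3 were not past the fold in both libraries, with Id1 at ratios of 1.20 and 0.666.

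Receptors of fibroblast growth factors differed from one another. Fgfr1 was at 283 against 77.7 CPM in MGJ, a ratio of 3.64 (95% interval 3.47 to 3.83), and at 622 against 205 CPM in MGJ2, a ratio of 3.03 (95% interval 2.69 to 3.42), and the ligand Fgf1 was higher with it (3.98 and 2.70). Fgfr2 (0.453 and 0.369), the truncated receptor Fgfrl1 (0.341 and 0.396) and the ligand Fgf2 (0.460 and 0.439) were lower. Fgfr3, which restrains chondrocyte proliferation, had ratios of 0.845 and 0.310 and was lower in MGJ2 only by this rule. In all, 2 of the 8 genes of the list were higher and 3 lower in both libraries.

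Of 8 Wnt genes, Frzb, a secreted Wnt antagonist, was the only gene higher in both libraries, at 621 against 264 CPM in MGJ and 902 against 413 CPM in MGJ2 (ratios 2.35 and 2.18), and the related antagonist Sfrp5 was the only gene lower (0.243 and 0.235). Over all genes the shares were 6.40% higher and 8.48% lower. In the retinoic acid list, genes of synthesis and of breakdown lay on opposite sides. Aldh1a3 and the retinol dehydrogenase Rdh10 (2.64 and 3.53) were higher, and Cyp26b1, which degrades retinoic acid, was lower at 24.4 against 83.7 CPM in MGJ and 6.03 against 55.8 CPM in MGJ2 (ratios 0.292 and 0.108). In all, 3 of the 8 genes were higher and 1 lower in both libraries. In the IGF list, the growth hormone receptor Ghr was higher (2.45 and 1.89), and Igf2, Igfbp4 and Igfbp7 were lower, Igfbp7 at ratios of 0.407 and 0.541. Igf1 differed between the libraries, at 0.431 and 1.76.

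No gene of the vascular and osteoclast list was past the fold upwards in both libraries. Vegfa, the main vessel growth factor, was at 420.0 against 320.4 CPM in MGJ (ratio 1.31) and at 821 against 473 CPM in MGJ2 (ratio 1.74), above 1 in both and past the fold in the second. Tnfrsf11b, the gene of osteoprotegerin, which blocks osteoclast formation, had ratios of 2.21 and 1.40, and the matricellular Ccn2 1.85 and 1.29. Tnfsf11, the osteoclast-forming ligand RANKL, was at 10.2 and 10.6 CPM in the members, and the mean of both sets was under 10 CPM in MGJ2. Cnmd, a cartilage protein that holds back vessels, was the gene lower in both, at 1176 against 2463 CPM in MGJ and 517 against 2454 CPM in MGJ2 (ratios 0.478 and 0.211).

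Transcription factors of cartilage and bone numbered 1 higher and 2 lower of 19 in both libraries, near the 6.40% and 8.48% of all genes. The gene higher was Mef2c, a driver of hypertrophy, at 371 against 108 CPM in MGJ, a ratio of 3.42 (95% interval 3.28 to 3.58), and at 410.3 against 230.1 CPM in MGJ2, a ratio of 1.78 (95% interval 1.57 to 2.02). Chondrocytes of MGJ with Col10a1 from 10 to 100 held 223 CPM of Mef2c. In MGJ2 it was at 200 CPM in the 7 barcodes from 10 to 30. The 10 barcodes from 30 to 100 held 453 CPM, more than the members. Hdac4, which holds Mef2c in check, was lower (0.452 and 0.463), as was Sox5 (0.393 and 0.407). Sox9, the master factor of chondrocytes, remained at 740.3 CPM in the members of MGJ and 1456 CPM in MGJ2 (ratios 0.882 and 0.787). Runx2, which drives hypertrophy and bone formation, had ratios of 1.41 and 1.67, above 1 in both and past 1.5-fold in MGJ2 alone. Foxa2, another factor of hypertrophy, was higher in MGJ (2.46), and its ratio in MGJ2 was 1.24 (95% interval 0.848 to 1.80).

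Matrix genes lay mostly on the lower side. Of 19 cartilage matrix genes beside those of the rule, 6 were lower in both libraries and none was higher, and the list medians were -0.36 in MGJ and -1.23 in MGJ2. Within MGJ 6 were lower and 3 higher, while within MGJ2 16 were lower. Ucma, a Gla-rich protein of immature cartilage, was at 343 against 1884 CPM in MGJ and 128 against 529.5 CPM in MGJ2 (ratios 0.182 and 0.242), and Scrg1 (0.315 and 0.185), Epyc (0.355 and 0.0408), Fmod (0.418 and 0.292), Matn4 (0.448 and 0.228) and Cnmd made up the rest. Col2a1 and Acan, which the rule used only as minima for both sets, had ratios of 0.908 and 0.681 and of 1.24 and 1.01. Hapln1, the link protein that holds aggrecan to hyaluronan, stood at 7402 against 4456 CPM in MGJ but at 2619 against 4652 CPM in MGJ2, ratios of 1.66 and 0.563. Against chondrocytes with Col10a1 from 10 to 100 it was at 0.948 in MGJ, on the other side of 1.

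Of 15 fibrous and bone matrix genes 9 were lower in both libraries and none higher. Col1a1, the main collagen of bone, was at 1920 against 4554 CPM in MGJ, a ratio of 0.422 (95% interval 0.415 to 0.428), and at 2164 against 9362 CPM in MGJ2, a ratio of 0.231 (95% interval 0.222 to 0.240). Col12a1 (0.263 and 0.136), Tnc (0.261 and 0.177) and Postn (0.291 and 0.487) were among the others. Fn1 and Dcn were past the fold upwards in MGJ2 only, Fn1 at ratios of 0.996 and 1.80. Enzymes and chaperones of collagen processing went the same way, with 9 of 19 lower in both. Serpinh1, the collagen chaperone HSP47, was at 1268 against 2274 CPM in MGJ and 923 against 2368 CPM in MGJ2 (ratios 0.558 and 0.390), and Pcolce, an enhancer of collagen maturation, had the smallest ratios of the list in MGJ (0.257 and 0.259). The exceptions were Loxl4, Lox (2.58 and 1.92) and Pcolce2 (3.38 and 2.02), the 3 genes of the list that were higher in both. Lox was at 931 and 791 CPM in the members.

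Some genes of the endoplasmic reticulum were lower along with these. Of 24 genes of the unfolded protein response and secretion 6 were lower in both libraries and 1 higher, and medians were -0.45 in MGJ and -0.92 in MGJ2, with 18 lower within MGJ2. Hspa5, the chaperone BiP, was at 472 against 797 CPM in MGJ and 490.2 against 1091 CPM in MGJ2 (ratios 0.592 and 0.449). Creb3l2, a membrane-bound factor that raises secretory capacity in chondrocytes, had ratios of 0.361 and 0.369. Atf3, a stress-response factor, was the gene higher in both, at 182 against 74.01 CPM in MGJ and 307 against 106 CPM in MGJ2 (ratios 2.47 and 2.91).

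Genes of mineralization and late hypertrophy were split, with 2 of 14 higher and 2 lower in both libraries, against 6.40% and 8.48% of all genes. Mmp13, the collagenase of late hypertrophic cartilage (chr9:7272514-7283331, plus strand), was at 822 CPM against 207 CPM in MGJ, a ratio of 3.98 (95% interval 3.86 to 4.10), and at 1438 against 132 CPM in MGJ2, a ratio of 10.9 (95% interval 9.58 to 12.4). Spp1, osteopontin (chr5:104435118-104441050, plus strand), was at 12497 against 4363 CPM in MGJ and 21122 against 6632 CPM in MGJ2 (ratios 2.86 and 3.19). The phosphate transporter Slc20a1 (0.498 and 0.653) and the pyrophosphate exporter Ank (0.555 and 0.652) were lower. Several other genes were past the fold in MGJ and near 1 in MGJ2. Alpl, the alkaline phosphatase that frees phosphate, was at 1272 CPM in members of MGJ and 1235 CPM in those of MGJ2, and its ratios were 2.43 (95% interval 2.37 to 2.48) and 1.04 (95% interval 0.978 to 1.11). Phex (6.66 and 1.13), Bglap (4.47 and 1.002) and Dmp1 (3.41 and 0.823) had the same form. In both libraries, MGJ included, the lower-Col10a1 set held the higher osteoblast sum given above, from a list that includes Bglap and Dmp1. Whether that sum bears on these ratios was not tested. Mgp, an inhibitor of mineralization, was on opposite sides, at 7440.5 against 13153 CPM in MGJ and 13257 against 8643 CPM in MGJ2. Its level was lowest between, at 4329.9 and 2856 CPM in chondrocytes with Col10a1 from 10 to 100, so that against these the members were higher in both libraries (1.72 and 4.64).

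Among other proteases, Mmp2 (0.353 and 0.209), Mmp14 (0.565 and 0.311) and Ctsk (0.427 and 0.539) were lower in both libraries and Mmp13 alone was higher, of 9 genes. Mmp9, a gelatinase of osteoclasts and late hypertrophic cartilage, held 77 UMIs in the members of MGJ and 5 in those of MGJ2. Timp3, a protease inhibitor, was higher in MGJ (2.81) and had a ratio of 1.31 in MGJ2. Of 20 genes of glycolysis and hypoxia only Epas1 was higher and only Eno1 lower in both (0.515 and 0.460), counts near those given by the shares of all genes, and Hif1a, the sister factor of Epas1, had ratios of 0.919 and 1.14. In the list of cell cycle arrest and death, Gadd45a was the 1 of 15 genes past the fold in both (1.65 and 1.84), near the 6.40% of all genes. Cdkn1a, the inhibitor p21, stood at 1238 and 1182 CPM (ratios 1.34 and 1.28). Cdkn1c, the inhibitor p57, was on opposite sides, at 2.03 and 0.453.

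Some inflammatory genes differed in direction between the libraries, with 4 of 6 lower in MGJ, and 3 higher and 1 lower in MGJ2. Over all genes 13.5% were lower in MGJ, and 14.0% were higher and 19.7% lower in MGJ2. In MGJ Hp, the acute-phase protein haptoglobin, was at 39.1 CPM in the members against 577 CPM, a ratio of 0.0678 (95% interval 0.0612 to 0.0748), and Cxcl1, a chemokine that draws neutrophils, at 1569.9 against 4377 CPM (ratio 0.359). In MGJ2 the lower-Col10a1 chondrocytes held 9.46 CPM of Hp and 93.2 CPM of Cxcl1, and the members 15.8 and 118 CPM. Hp is 1 of the 3 genes counted as higher in MGJ2. Its levels there lay close to the minimum level for a call, and its direction in MGJ2 is therefore uncertain. Ptges, a prostaglandin E synthase, had ratios of 1.01 and 7.30 and the chemokine Cxcl2 of 0.457 and 1.88. Of the 6 genes, Ier3 alone was lower in both (0.355 and 0.569).

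**Figure D3:**
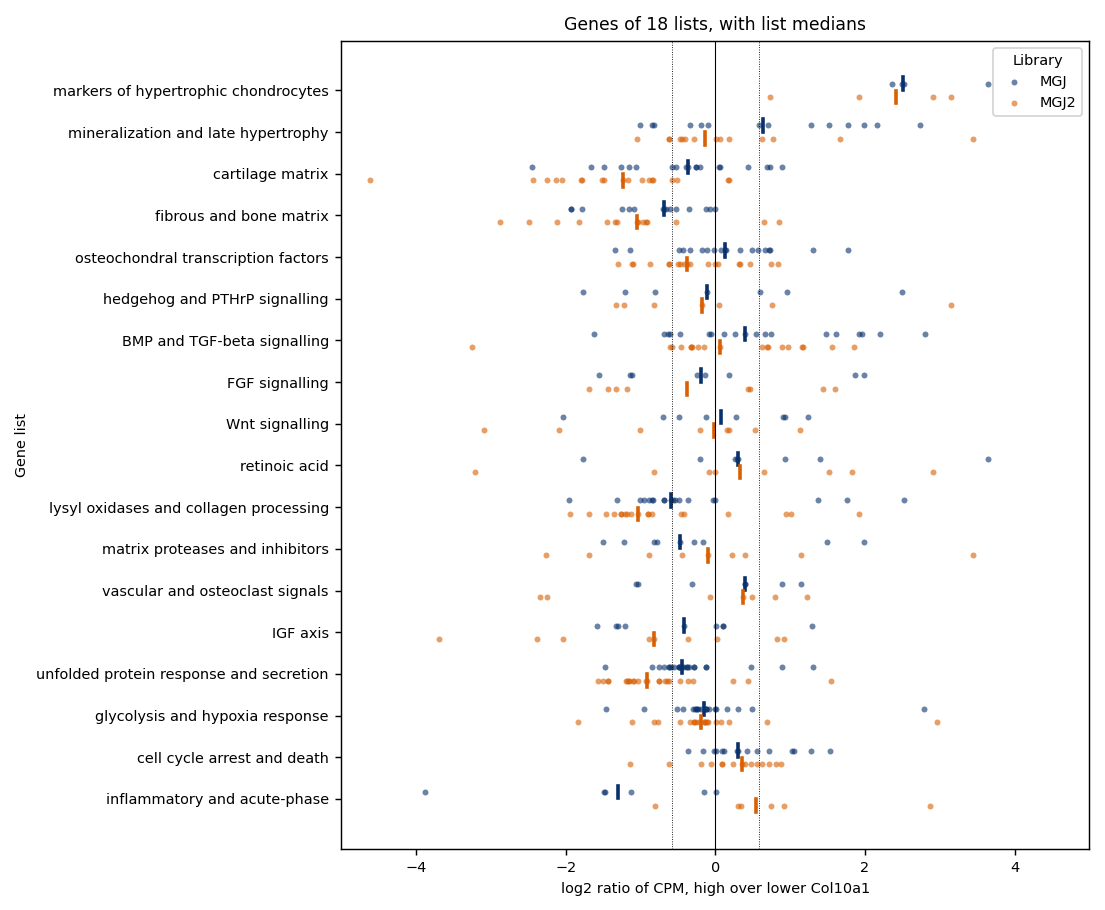
Log2 ratio of CPM, high-Col10a1 over lower-Col10a1 chondrocytes, for each gene of 18 lists (points) in MGJ (blue) and MGJ2 (orange), with the list medians as bars and dotted lines at 1.5-fold; genes of the rule are left out. Medians of the collagen, secretion and matrix lists lay left of 0 in both libraries (cartilage matrix -0.36 in MGJ and -1.23 in MGJ2), and the BMP list extended to the right.

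A few genes outside the lists had both high levels and large ratios and are named after their values were seen. Cst3, the protease inhibitor cystatin C, was at 17350 against 3467 CPM in MGJ and 21619 against 5963 CPM in MGJ2 (ratios 5.004 and 3.63). Pcsk6, a proprotein convertase, had ratios of 4.25 and 4.70, and F13a1, the transglutaminase factor XIII-A, 3.43 and 5.58. Hpgd, which degrades prostaglandins, was at 216 against 29.97 CPM in MGJ and 349 against 105 CPM in MGJ2 (ratios 7.20 and 3.32).

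Chondrocytes were also grouped by their own Col10a1, and levels differed between groups on both sides of the cut. The groups for MGJ had edges at 10, 30, 100, 200 and 400 per 10000 and held 114 to 1583 barcodes, 151, 173 and 114 of them in the 3 groups of members. Within the members of MGJ, Ihh was at 130.3, 228 and 397 CPM from the lowest to the highest group, Fgfr1 at 187, 301 and 416 CPM and Epas1 at 18.6, 36.5 and 64.5 CPM. Below the cut Epas1 was at 4.60, 7.38 and 7.29 CPM in the 3 groups outside the rule. Bmp2 was higher in each successive group of MGJ, from 175 to 1413 CPM, and so was Cst3, from 2262 to 23457 CPM. Alpl instead was at 1152 CPM just below the cut and between 1239 and 1309.5 CPM in the members.

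Other genes were lower in each successive group of members. Within the members of MGJ, Ucma was at 588, 259 and 74.2 CPM, Serpinh1 at 1676, 1142 and 798 CPM, Hspa5 at 699, 360.0 and 289 CPM and Ptch1 at 48.9, 29.3 and 15.6 CPM. Hapln1 was at its highest just below the cut, at 8432 CPM, and was at 6042 CPM in the highest group. In MGJ2 the members split into 2 groups of 19 barcodes at 400 per 10000, and Ihh was at 419 and 812 CPM in them, Serpinh1 at 1174 and 616 CPM and Bmp2 at 663 and 599 CPM. Ptch1 of MGJ2 had no such order, at 439 CPM in the 5 members from 100 to 200, at 20.8 CPM in the 14 from 200 to 400 and at 26.8 CPM above. All groups of this kind share the denominator of UMIs, in which Col10a1 itself took a growing share, and the groups of MGJ2 were thinly filled.

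**Figure D4:**
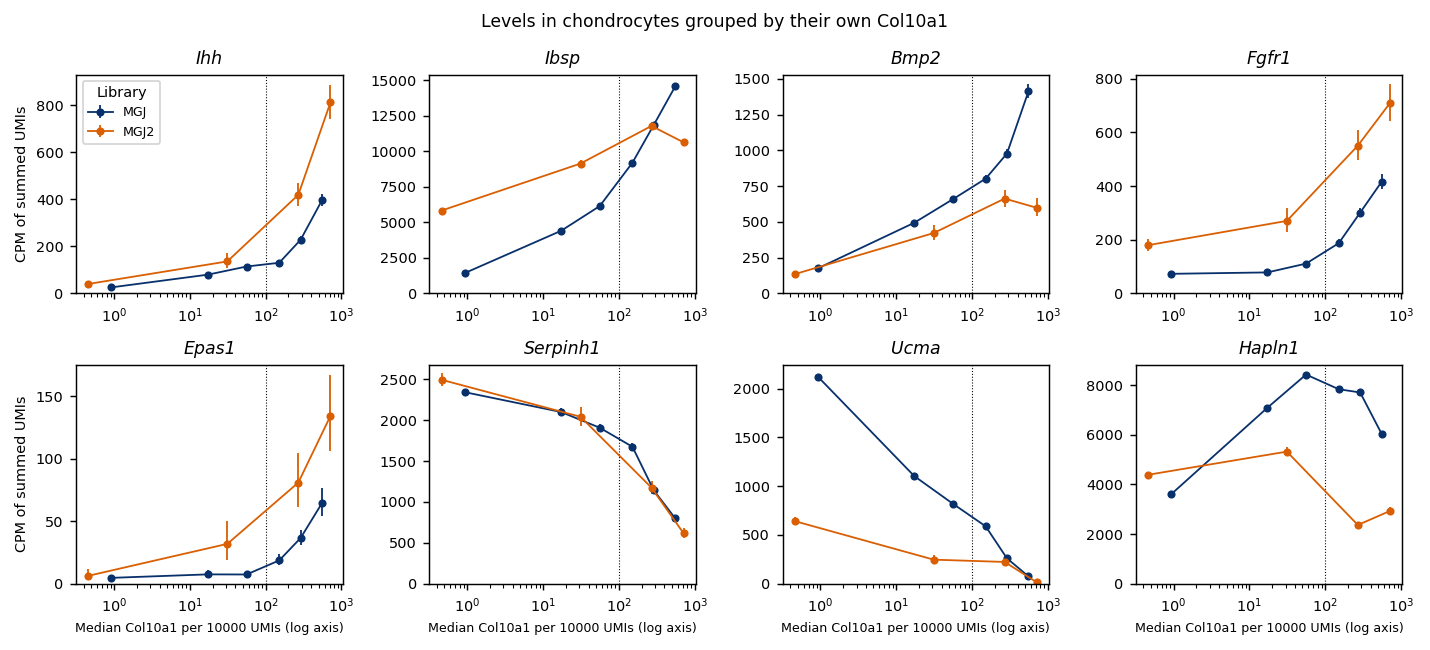
Summed level (CPM, from 0) of 8 genes in chondrocytes grouped by Col10a1, plotted at the median Col10a1 per 10000 UMIs of each group (log axis), for 6 groups of MGJ (blue) and 4 of MGJ2 (orange), with 95% Poisson intervals; the dotted line marks the cut at 100. Ihh, Fgfr1 and Epas1 were at their highest in the last group of each library, Serpinh1 and Ucma at their lowest, and Hapln1 of MGJ was highest below the cut at 8432 CPM.

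The members were not uniform for genes that the rule did not use. With each cell thinned to 5000 UMIs, Ihh was found in 178 of 438 members of MGJ (40.6%, exact binomial interval 36.00 to 45.4%) and 22 of 38 of MGJ2 (57.9%, 40.8 to 73.7%), against 9.64% and 16.9% of lower-Col10a1 chondrocytes. Without thinning the shares of members were 67.8% and 76.3%. Neutrophil barcodes of at least 5000 UMIs (median 7999.5 and 9394), thinned the same way, held Ihh in 0.916% and 0.300%. Mmp13 was found in 40.6% and 50% of thinned members, against 10.4% and 1.20% of neutrophil barcodes, and Aldh1a3 in 65.1% and 39.5% (0.916% and 0.300%). Alpl was found in nearly every member, 95.9% and 97.4%. Spp1 was also in 86.8% and 70.02% of thinned neutrophil barcodes, so a share of cells with an Spp1 UMI says nothing here.

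Mmp13 was spread very unevenly. Its median over members was 0.453 per 10000 UMIs in MGJ and 0.981 in MGJ2, while the upper quartile was 4.77 and 18.5 and the highest member 281 and 197. The summed levels of Mmp13 given above rested on a minority of members. Ihh had a median of 0.785 and 1.16 per 10000 with highest members at 40.8 and 65.4, and Spp1 a median of 67.7 and 116 with highest members at 1552 and 647. Across thinned members (n = 438 and 38, cells that share a library), Spearman's ρ of Mmp13 with Spp1 was 0.51 in MGJ and 0.35 in MGJ2, and with Hapln1 -0.53 and -0.31. Mmp13 was also inverse to Alpl (-0.36 and -0.36) and had a ρ near 0 with Ihh (-0.01 and 0.12). Ihh went with Pth1r (0.29 and 0.41) and Ibsp with Alpl (0.31 and 0.41). Col10a1 was inverse to the chaperone Calr (-0.42 and -0.49) and went with Loxl4 (0.25 and 0.39).

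The level of Mmp13 was lower the higher the group by Col2a1. Members were grouped by Col2a1, a gene of the rule, at 300 and 600 per 10000, a division added after the data were seen, giving 79, 206 and 153 barcodes in MGJ and 18, 12 and 8 in MGJ2. From the lowest to the highest Col2a1, Mmp13 was at 3315, 567 and 66.1 CPM in MGJ and at 2499, 1166 and 102 CPM in MGJ2. Rdh10 and Epas1 had the same order, Epas1 at 81.4, 35.1 and 16.3 CPM and 171, 86.2 and 24.7 CPM. Alpl went the other way, at 763, 1277 and 1494 CPM and 934, 1129 and 1969.8 CPM. Col10a1 itself differed less, at 37483, 31151 and 24861 CPM in MGJ. Spp1 had the order of Mmp13 in MGJ (30925, 11335 and 5872 CPM) and not in MGJ2 (20853, 19270 and 25159 CPM). Mgp in MGJ was 23620 CPM in the first group and 2167 CPM in the last. The mitochondrial share moved with these groups in MGJ, with medians of 1.88, 3.16 and 3.19%, and its part was not tested.

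**Figure D5:**
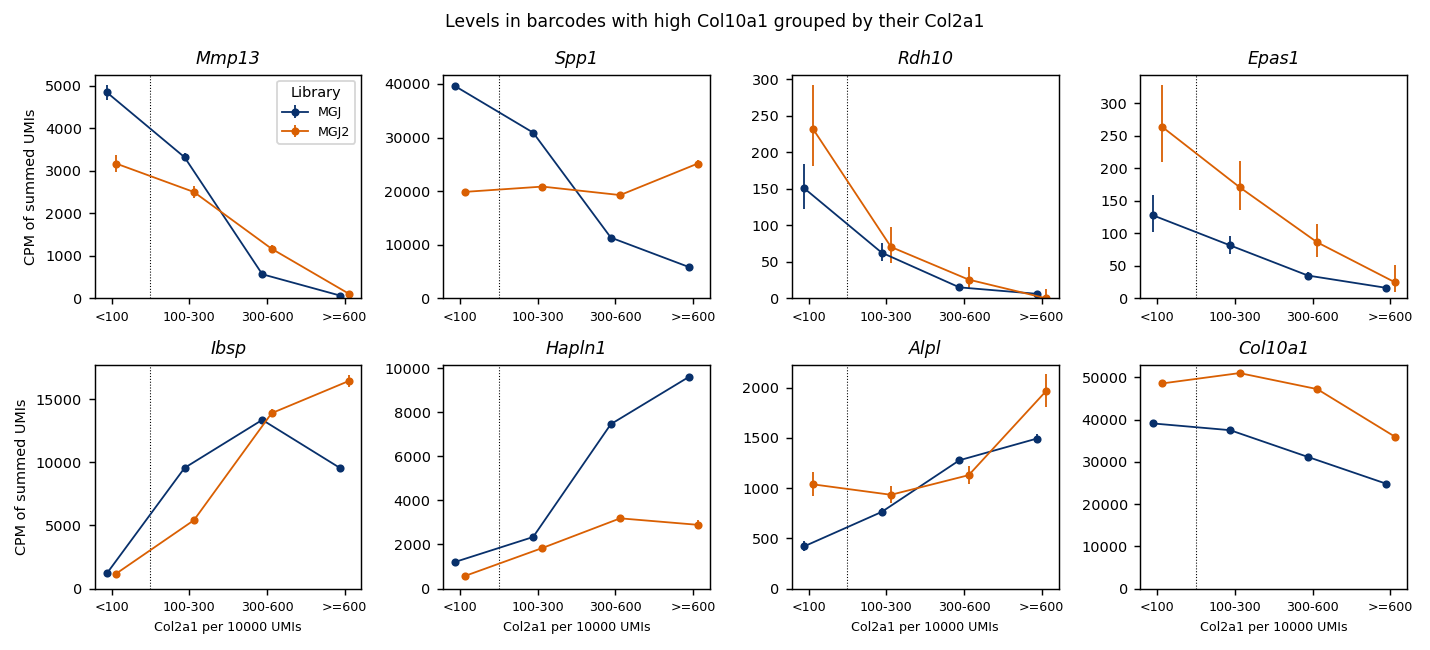
Summed level (CPM, from 0) of 8 genes in barcodes with Col10a1 of at least 100 per 10000, grouped by Col2a1 per 10000 UMIs, in MGJ (blue) and MGJ2 (orange) with 95% Poisson intervals; barcodes left of the dotted line fall outside the rule for Col2a1 alone. Mmp13, Rdh10 and Epas1 were highest at the lowest Col2a1 (Mmp13 4839 and 3167 CPM) and Ibsp was at its lowest there.

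The members were last set beside barcodes with bone collagen. These barcodes were chosen by Col1a1 of at least 100, Ibsp of at least 50 and Col2a1 under 100 per 10000 and held 68 in MGJ and 10 in MGJ2, a rule added after the first one, with Bglap genes, left 5 and 2 barcodes. Hapln1 was 24.3-fold (95% interval 21.8 to 27.1) and 22.3-fold (15.6 to 33.1) as high in the members, and Ihh stood at 2 UMIs in these barcodes of MGJ and 0 in those of MGJ2. The rules set the 2 groups apart by Col2a1, so the difference in Hapln1, a cartilage gene, partly follows from that choice. Among high-Col10a1 barcodes of MGJ, Hapln1 was at 1212 CPM with Col2a1 under 100 and at 9593 CPM from 600. Dmp1, a protein of mineralized bone, was at 34.2 CPM in the members against 638 CPM in MGJ and 89.00 against 1074 CPM in MGJ2. Mmp13 was lower in the members, at 822 against 1610.5 CPM in MGJ and 1438 against 3728 CPM in MGJ2, and Spp1 differed by less than 1.5-fold (0.747 and 0.844). Alpl and Phex, listed with mineralization, were at 779.8 and 143 CPM in these barcodes of MGJ, with Alpl below its level in the members of MGJ given above.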

How the data were processed

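Raw UMI counts by gene and barcode were deposited as 2 filtered matrices without normalization. The headers name Cell Ranger 4.0.0. GRCm38 is named in the submitters' processing notes, and the annotation is not given in the sources used here. The members, gene lists and named-gene rule were chosen with earlier results of these data known. UMIs were summed over the barcodes of a set and given as CPM with exact Poisson intervals, and ratios of sums with exact conditional binomial intervals. A gene was called past the fold at 1.5 in either direction with a mean of both sets of at least 10 CPM. No test between groups was made, since each library was 1 sample. Named genes were the 5 markers, examples of the 18 lists (largest and smallest ratio and highest level) and the 10 genes with the largest ratio in each direction. Neutrophil barcodes had S100a8 and S100a9 of at least 500 per 10000 and at least 1000 UMIs. Doublets were called with Scrublet (scanpy 1.11.5), as an alternative only. Genes of the lists were also named by role beyond this rule, with their values known. A gene of the second group and a gene of the lists are not reported here. The contrast was tested on simulated data. Python 3.11.15, scipy 1.17.1 and pandas 2.3.3 were used. Of 32285 gene identifiers, 99.6% were found in GENCODE M21, and upstream sequences came from RefSeq (GRCm38.p6).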

Additional observations from a re-analysis of the deposited data

Results flagged for a closer look

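Barcodes outside the rule also held high Col10a1. In MGJ 36 barcodes and in MGJ2 11 barcodes had at least 100 Col10a1 UMIs per 10000 and met all else, but had under 100 Col2a1 UMIs per 10000, and none of the comparisons above except the grouping by Col2a1 used them. Their Col10a1 was at 39089 CPM in MGJ and 48539 CPM in MGJ2. Mmp13 was at 4839 CPM, 5.88-fold (95% interval 5.65 to 6.13) the level of the members in MGJ, and at 3167 CPM, 2.20-fold (2.04 to 2.38), in MGJ2. Rdh10 was at 151 and 232 CPM, 7.78- and 6.27-fold the level of the members, and Ibsp at 1202 and 1184 CPM, 0.105 and 0.105 of it. Spp1 was 3.17-fold in MGJ and 0.941-fold in MGJ2.

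Barcodes removed by the filters on genes and mitochondrial UMIs, 835 in MGJ and 203 in MGJ2, held 1457 and 899 Col10a1 UMIs, or 1011 CPM (95% Poisson interval 959.9 to 1064) and 2187 CPM (2047 to 2335). These levels were above the 390.1 and 231 CPM of neutrophil barcodes. The rest of the rule was met by 0 of them in MGJ and 2 in MGJ2.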

How the results depend on the processing

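The 64 genes followed through 13 alternatives gave 1664 ratios, of which 1316 stayed within their counting interval, 344 moved by more, and 4 reversed. Only ratios past 1.5-fold in the main comparison could count as reversed, so ratios nearer to 1 that changed side are not among the 4. All 4 reversed against chondrocytes with Col10a1 from 10 to 100 alone, Hapln1 (0.948), Mgp (1.72) and Pth1r (0.96) in MGJ and Ogn (1.28) in MGJ2. Against this set 397 genes were higher and 449 lower in MGJ, and 203 higher and 235 lower in both libraries, of 6143 tested in both. With a mean of at least 50 CPM these counts were 273 and 300 in MGJ, 277 and 430 in MGJ2, and 140 and 169 in both, where fewer genes were tested. With no filter they were 4008 and 3179, 3230 and 2942, and 1224 and 1163. Raising Col10a1 to 200 left 287 members in MGJ, and all other counts kept within 1.5-fold. Of the 404 and 535 genes called in both libraries, 401 and 529 remained without doublet calls and 356 and 467 with cells weighted equally. Against chondrocytes with Col10a1 from 10 to 100 alone, only 161 and 195 of them remained. Of 34 shares of members with a UMI, 30 moved without thinning. No paired analysis was possible because neither library has a group. The main limits are that each library was 1 sample without a day, that 38 members of MGJ2 carry all values of that library, and that CPM of a set is weighted by the depth of its cells.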

Other observations

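The barcodes with high Col10a1 and low Col2a1 differed from the members in further genes, all named after their values were seen. Mdk, the heparin-binding growth factor midkine, was at 311 CPM against 54.9 CPM in the members of MGJ and at 150.0 against 22.6 CPM in MGJ2, ratios of 5.67 (95% interval 4.81 to 6.67) and 6.63 (4.10 to 10.9). Csf1, a growth factor of macrophages and osteoclasts, was at 60.1 against 12.6 CPM in MGJ and 94.6 against 27.9 CPM in MGJ2. Arg1 was at 128 CPM in these barcodes of MGJ (83 UMIs) and at 0 UMIs in those of MGJ2, and Mmp9 at 50 UMIs and 1 UMI.

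Scrublet marked 140 barcodes of MGJ (1.04%) and 222 of MGJ2 (2.84%) as doublets, against expected rates of 10.8% and 6.24%. The marks fell on 4 members in MGJ and 0 in MGJ2.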
